A study of Mus musculus with 8 samples.

Results

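Glycolysis, pentose phosphate and hypoxia genes were followed in mouse fetal neural stem and progenitor cells with and without Kat7, which encodes a histone acetyltransferase. The members were 35 genes chosen by name, each found by its Entrez identifier among the 27179 genes of the count table. They comprise 2 glucose transporters, 9 enzymes of upper and 6 of lower glycolysis, 6 genes of pyruvate and lactate handling, 3 genes of the hypoxia-inducible factor (HIF) and its hydroxylases, 5 hypoxia targets and 4 pentose phosphate enzymes. All 35 passed the filter on low counts.

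Cells were grown as neurospheres, floating clusters of dividing neural precursors kept in proliferation medium, each isolate from a C57BL/6 fetus at E14.5 (embryonic day). The 4 Kat7 deleted cultures had the genotype Kat7lox/loxNesCreT/+ and the 4 Kat7 intact cultures Kat7+/+NesCreT/+, so both carried the Cre recombinase transgene. Nestin control directs that recombinase to neural precursors, and deletion depends on its action in each cell. One litter gave intact replicates 1 and 2, another gave deleted replicates 3 and 4, and the genotypes shared none, so that effects of litter and of genotype cannot be told apart. Values listed for the cultures of a genotype are in the order of replicates 1 to 4.

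Glycolysis splits glucose into pyruvate in the cytosol and yields ATP without oxygen. Dividing precursors are known to rely on it and to release much of the product as lactate. The pentose phosphate pathway branches off after the hexokinase step and supplies NADPH for reductive reactions and ribose for nucleotides. HIF1 is a transcription factor whose alpha subunit is hydroxylated and degraded when oxygen is present. When stabilised it raises glucose transporters, glycolytic enzymes, lactate dehydrogenase A and pyruvate dehydrogenase kinase, and it binds DNA at a core of ACGTG or GCGTG.

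Library totals ran from 10687817 to 22444359 counts, and 1 read was worth 0.0436 to 0.0918 CPM (reads of a gene relative to the TMM-adjusted library total). Kat7 stood at 77.1 to 92.1 CPM in intact libraries, against 26.4, 0.367, 13.9 and 0.0870 CPM across the deleted cultures. Deleted replicates 1 to 4, all of the same genotype, thus held 416, 4, 253 and 1 Kat7 reads. The exons removed are not given in the sources used here, and where the remaining reads came from was not tested. The log2 fold change of Kat7 was -3.02 ± 1.10 (edgeR adjusted p = 0.128), which missed the threshold of 0.05. Mitochondrial transcripts made up 18.95% to 23.5% of each intact library and 29.9%, 18.95%, 17.1% and 34.4% of the deleted ones. Summed levels of 6 neural stem and progenitor markers were 4995 to 6067 CPM in intact libraries, against 3574 to 5686 CPM across the deleted cultures. Of the 2 red blood cell markers matched to the count table (Hbb-bt was not) Hba-a1 was at 0 in every library, as was C1qa of 4 microglial markers, and neither list summed to more than 1.13 CPM in any library. The 4 endothelial markers summed to at most 1.84 CPM.

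Promoter sequences are shown for 5 members whose levels are described below, because the HIF core ACGTG or the antioxidant response core TGACNNNGC lies in them. Each is the stretch of 250 bases before an annotated transcription start in RefSeq on GRCm38.p6, 5′ to 3′ on the gene's own strand. That start need not be the outermost of the gene. The Ankrd37 stretch lies wholly inside the listed gene, which runs to 46000414. The P4ha1 gene is listed from 59323197, so both matches marked for it lie inside the gene. Capitals mark ACGTG and TGACNNNGC on either strand.
Ankrd37, chr8:45999851-46000100, minus strand: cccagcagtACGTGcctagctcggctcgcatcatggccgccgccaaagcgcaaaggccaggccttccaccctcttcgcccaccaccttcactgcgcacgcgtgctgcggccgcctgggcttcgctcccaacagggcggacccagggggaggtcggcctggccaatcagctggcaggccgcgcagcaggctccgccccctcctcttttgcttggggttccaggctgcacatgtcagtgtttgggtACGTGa
Bnip3, chr7:138909507-138909756, minus strand: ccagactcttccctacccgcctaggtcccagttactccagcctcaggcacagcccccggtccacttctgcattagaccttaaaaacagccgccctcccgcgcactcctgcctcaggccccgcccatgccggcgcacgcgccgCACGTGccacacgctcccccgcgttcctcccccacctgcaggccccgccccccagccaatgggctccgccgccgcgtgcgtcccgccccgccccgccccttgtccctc
P4ha1, chr10:59323046-59323295, plus strand: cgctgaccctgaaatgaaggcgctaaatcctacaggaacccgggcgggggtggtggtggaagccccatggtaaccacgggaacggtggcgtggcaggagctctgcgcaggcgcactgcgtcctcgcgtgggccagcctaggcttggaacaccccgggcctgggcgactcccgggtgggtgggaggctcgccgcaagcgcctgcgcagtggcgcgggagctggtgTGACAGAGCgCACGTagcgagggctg
Slc2a1, chr4:119108495-119108744, plus strand: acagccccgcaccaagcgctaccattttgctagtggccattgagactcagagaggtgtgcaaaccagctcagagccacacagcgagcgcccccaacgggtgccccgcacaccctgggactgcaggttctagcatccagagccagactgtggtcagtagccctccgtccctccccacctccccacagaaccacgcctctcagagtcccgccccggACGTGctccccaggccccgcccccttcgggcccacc
G6pdx, chrX:74428881-74429130, minus strand: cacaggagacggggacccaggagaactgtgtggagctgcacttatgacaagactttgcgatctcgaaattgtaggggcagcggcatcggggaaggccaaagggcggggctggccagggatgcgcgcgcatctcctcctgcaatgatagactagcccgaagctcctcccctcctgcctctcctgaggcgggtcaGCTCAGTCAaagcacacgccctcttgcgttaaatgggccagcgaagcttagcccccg

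The outermost base of a match lay 241 and 6 bases before the start in Ankrd37, 36 in Slc2a1 and 57 in G6pdx. In Bnip3 the 6 capital bases read the same on both strands, so that overlapping matches on opposite strands were counted at 108 and 107. In P4ha1 the TGACNNNGC match begins at 26 and the ACGTG match, on the opposite strand, at 16. Promoters were listed for 33 of the 35 members, with 47 start sites; Slc2a3 and Bnip3l were not matched. ACGTG occurred in 20 of these 47 sequences (42.6%) and in 18 of the 33 members, against 16.6% of all 32851 promoters in the table. GCGTG occurred in 27 (57.4%, against 28.2%) and TGACNNNGC in 5 (10.6%, against 10.2%). The background promoters were not matched to the members for base composition or expression, and stretches from the same gene can overlap. Glycolytic and HIF target promoters are known for the HIF core, and a match is a description of letters, not of binding.

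In intact cultures the levels per length put Ldha, the lactate dehydrogenase subunit that favours lactate formation, first with 610 CPM per kilobase of gene length as listed in the count table. Pkm (pyruvate kinase) followed at 576, Aldoa (aldolase A) at 462, Tpi1 (triose phosphate isomerase) at 235 and Eno1 (enolase 1) at 168 CPM per kilobase. The pentose phosphate enzyme Tkt stood at 125. At the lower end were Slc2a3 (3.12), Eno2, the neuronal enolase (0.420), and Slc16a3, a lactate exporter (0.358).

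Gapdh, glyceraldehyde-3-phosphate dehydrogenase and an abundant transcript in most cells, was listed at only 5.25 CPM per kilobase. Of the 100-base windows of its transcript, the length of a read here, 78.0% occurred letter for letter in transcripts of other genes, 86 genes of which 82 were annotated as pseudogenes in GENCODE M21. The share was 67.0% for Pgk1 (phosphoglycerate kinase), 59.0% for Eno1, 39.7% for Pgam1 (phosphoglycerate mutase) and 33.5% for Bnip3, and 16.0% or less for the other 30 members. A read from such a window fits a transcript of another gene too, and how the authors counted it is not given in the sources used here. The count did not separate copies elsewhere in the genome from genes that overlap at the same place. For Bnip3, 2 of the 4 other genes were annotated as pseudogenes. Levels of Gapdh, Pgk1, Eno1, Pgam1 and Bnip3 are therefore uncertain, Gapdh most of all.

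**Figure D1:**
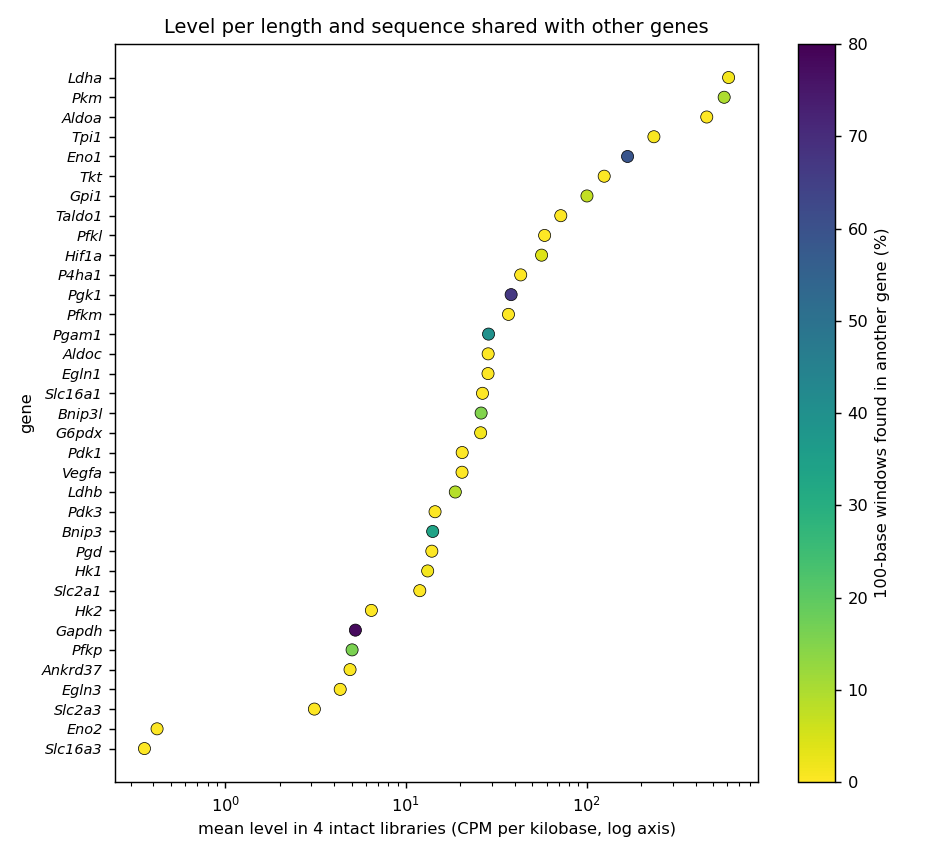
Mean level of the 35 members in the 4 intact libraries, in CPM per kilobase on a log axis, with each point coloured by the percentage of the gene's 100-base transcript windows found in another gene. Ldha, Pkm and Aldoa lead, and Gapdh, with the highest shared percentage (78.0%), lies among the lowest.

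Between genotypes, 1 of the 35 members was called and 34 were not. The called gene was Aldoc, higher in the deleted cultures, and the call rate of 2.86% stands beside 7.9% of all 13498 tested genes (5.1% higher, 2.8% lower, or 688 and 378 genes). With scaling by total counts the split over all genes was 309 higher and 364 lower. By fitted value 21 members lay above 0 and 14 below, with a median log2 fold change of 0.16 against 0.05 over all tested genes. A fold of less than 2 was fitted for 33 members, the others being Aldoc and Eno2. At an unadjusted p under 0.05 there were 3 members higher (Aldoc, G6pdx and Tkt) and 2 lower (Slc2a3 and Ldha), 14.3% of the members against 26.2% of all genes (15.8% higher, 10.4% lower). The same 5 were the members whose genotypes did not overlap, again 14.3%, where the background was 19.9% (10.7% above, 9.21% below). DESeq2 called 4 members, Aldoc, G6pdx and Tkt higher and Slc2a3 lower, beside 2200 of all 13498 genes.

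**Figure D2:**
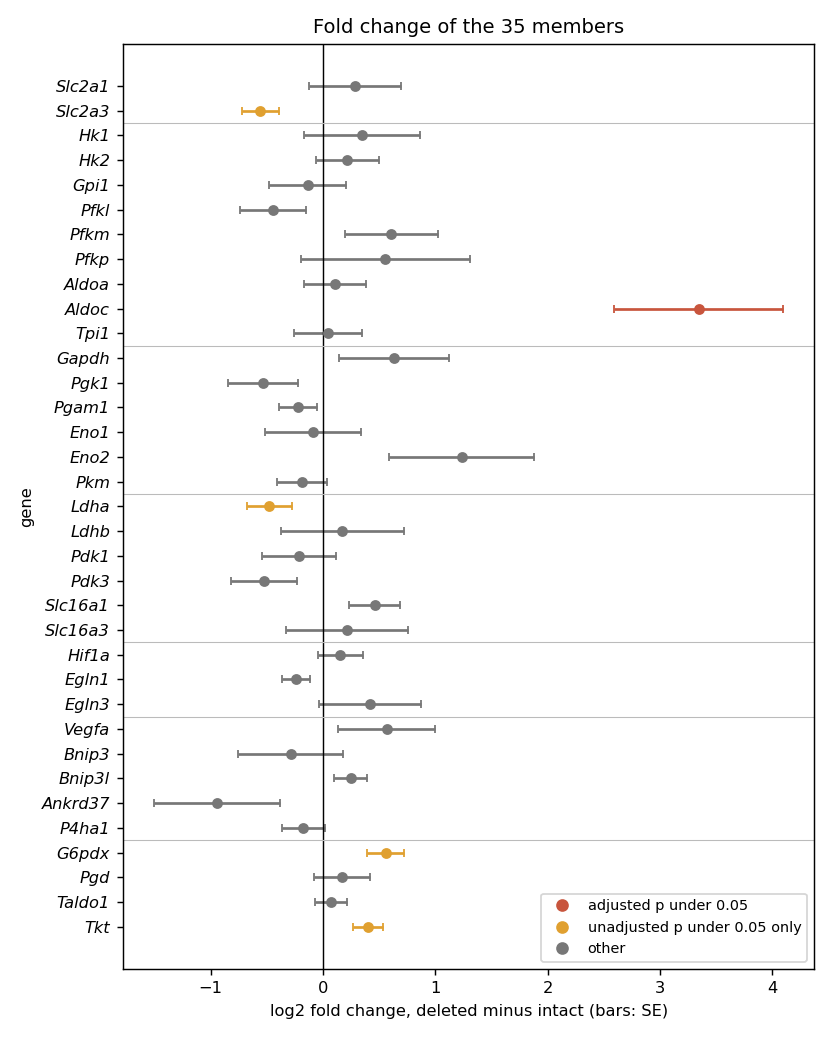
Log2 fold change of each member, Kat7 deleted minus Kat7 intact, with its approximate standard error from the edgeR fit, in the order transport, glycolysis, pyruvate and lactate, HIF, hypoxia targets and pentose phosphate. Aldoc at 3.34 lies apart, and all others but Eno2 (1.23) lie within 1 of 0.

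Aldoc, aldolase C, splits fructose-1,6-bisphosphate and is the aldolase of brain, known as an astrocyte-enriched gene (chromosome 11, 78323073 to 78327781 in GRCm38). It stood at 54.2, 34.5, 62.1 and 43.3 CPM in the 4 intact cultures, against 1232, 72.1, 370.5 and 294 CPM in the 4 deleted cultures. The genotypes did not overlap, but deleted replicate 2 only just, and deleted replicate 1 was far above the rest. The log2 fold change was 3.34 ± 0.75 (edgeR adjusted p = 0.0358), with means of 48.5 ± 12.1 and 492 ± 509 CPM (SD, n = 4). Without deleted replicate 1 the log2 fold change was 2.34 and the call was kept. The call was lost without intact replicate 1, 2, 3 or 4 (adjusted p up to 0.119) and without deleted replicate 3 (0.0543). It was also lost when litter was taken into account, as a random block (0.0968) or by summing littermates (0.128), and with limma-voom (0.0504). Over all genes the fits without 1 intact library called 189 to 261, against 1066 in the main fit.

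Aldoa, the widely expressed aldolase, was not called (log2 fold change 0.11 ± 0.27). It stood at 890.02, 975, 783 and 719 CPM in the 4 intact cultures, against 1191, 469.9, 900 and 1070.4 CPM in the 4 deleted cultures. Per length, Aldoa outnumbered Aldoc 15.3, 26.4, 11.8 and 15.5 to 1 in intact libraries. In deleted replicates 1 to 4 the ratio was 0.902, 6.08, 2.27 and 3.40, below every intact library. In deleted replicate 1 the CPM were close, at 1191 for Aldoa and 1232 for Aldoc. Which was more abundant there depends on the lengths used, here 1824 and 1702 bases from the count table. The longest coding transcripts had 1549 bases for Aldoa and 2786 for Aldoc. The ratio was computed with no test.

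The genotypes overlapped for the other 11 ratios between related genes, each per length and with no test. Ldha over Ldhb was 35.04, 38.1, 30.5 and 27.1 in intact replicates 1 to 4 and 12.1, 70.6, 33.3 and 20.5 in deleted replicates 1 to 4. Hk2 over Hk1 was 0.475, 0.575, 0.310 and 0.619 in intact and 0.136, 1.28, 0.700 and 0.756 in deleted libraries. In both ratios the extremes of the 8 libraries were deleted replicates 1 and 2, at opposite ends. Slc2a1 over Slc2a3 was 3.96, 4.29, 3.16 and 3.91 in intact libraries and 5.23, 2.38, 7.64 and 12.8 in deleted ones, above the intact range in all but deleted replicate 2. Pfkl over Pfkm was 1.52, 1.804, 1.19 and 1.97 in intact libraries and 0.429, 0.752, 0.770 and 1.92 in deleted ones, below the intact range in all but deleted replicate 4. The spread among deleted libraries was wider than among intact ones for these 4 ratios (SD 25.8 against 4.88, 0.470 against 0.137, 4.43 against 0.475 and 0.655 against 0.343).

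Markers of astrocytes moved with Aldoc in part. The 8 markers summed to 603 to 1436 CPM in intact libraries, against 3965, 491, 969 and 886 CPM across the deleted cultures. Most of the sum was Slc1a3, at 3037, 337, 800 and 637 CPM in the deleted cultures, above its intact mean of 818 CPM in deleted replicate 1 alone. Of the 8, 3 were called higher (Aqp4, Apoe and Clu) and 0 lower, and each had reads in every library. Among those not called, Gfap was higher in every deleted library, and S100b and Aldh1l1 overlapped. Slc1a2 stood at 29.8 to 84.2 CPM in intact libraries, against 540, 5.32, 26.8 and 7.30 CPM in the deleted ones. In bulk RNA more cells of a type and more RNA per cell cannot be told apart, and the part of astrocyte-type cells in the Aldoc result was not tested. Deleted replicate 2 held the lowest summed markers and the lowest Aldoc of the deleted libraries.

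Deleted replicate 1 stood high for a further set of enzymes. Hk1, the hexokinase of brain, stood at 52.9 to 69.3 CPM in intact libraries, against 163, 20.1, 55.1 and 64.2 CPM across the deleted cultures. Pfkm, a phosphofructokinase subunit, stood at 92.8 to 131 CPM in intact libraries, against 359, 94.1, 129 and 105 CPM in the deleted ones. Ldhb, the subunit that favours lactate use, stood at 22.7 to 25.7 CPM and at 55.7, 5.32, 18.1 and 29.7 CPM. For Hk1, Pfkm and Ldhb deleted replicate 1 was the highest of the 8 libraries at 2.30 to 3.19 times the intact mean, while the other deleted libraries lay within or below the intact range, apart from Ldhb in deleted replicate 4. Without deleted replicate 1 the fold changes turned to -0.36 for Hk1, -0.044 for Pfkm and -0.45 for Ldhb. Of the 22 alternatives, 6 reversed the sign for Hk1, 3 for Pfkm and 8 for Ldhb. For Hk1 and Ldhb some of these kept every library, so their direction depends on the method as well. In all, deleted replicate 1 was the highest library for 10 of 35 members (28.6%), against 23% of all genes.

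**Figure D3:**
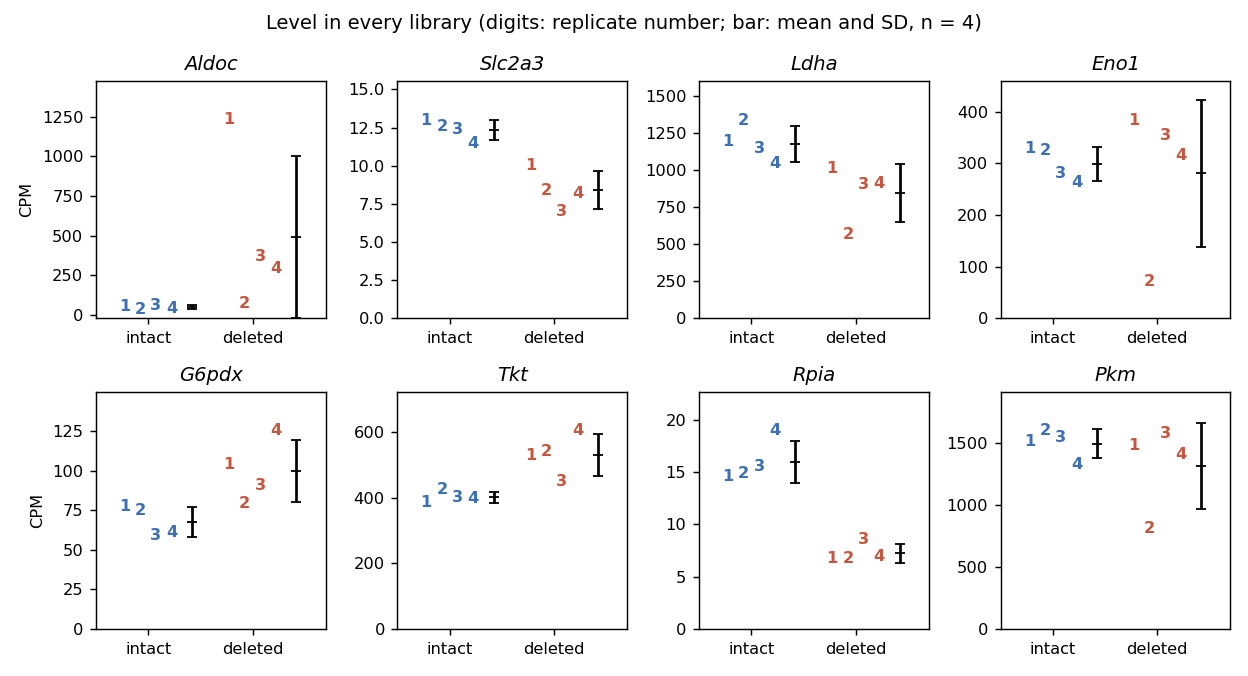
CPM of 8 genes in every library, the digit giving the replicate number, with mean and SD (n = 4) beside each genotype. Aldoc, G6pdx and Tkt lie higher and Slc2a3, Ldha and Rpia lower in every deleted library, while Eno1 and Pkm differ in deleted replicate 2.

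Deleted replicate 2 carried low levels along the length of glycolysis. It was the lowest of the 8 libraries for 17 of 35 members (48.6%), against 21.3% of all tested genes. Among the 21 genes of glycolysis, pyruvate and lactate it was lowest for 14 (66.7%). The median position of the enzymes relative to the intact mean was -0.94 log2 units for upper and -0.78 for lower glycolysis in this library, where the median of all genes was 0.01. In deleted replicates 1, 3 and 4 upper glycolysis lay at 0.56, 0.11 and 0.24 and lower glycolysis at -0.01, -0.06 and 0.07.

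Eno1 illustrates this, with 329, 324, 281 and 262 CPM in intact replicates 1 to 4 and 383, 71.6, 353 and 316 CPM in deleted replicates 1 to 4. Deleted replicate 2 was thus at 24.0% of the intact mean while the other 3 deleted libraries overlapped or exceeded the intact range. Pkm stood at 1517, 1599, 1549 and 1325 CPM in intact libraries, against 1482, 808, 1575 and 1410.4 CPM across the deleted cultures, again with deleted replicate 2 alone below the intact range. Tpi1 was at 51.8% of the intact mean in deleted replicate 2, Gpi1 (glucose-6-phosphate isomerase) at 38.8%, Pfkl (the liver-type phosphofructokinase subunit) at 39.6% and Pfkp (the platelet-type subunit) at 8.23%. Pgk1 and Pgam1 were at 30.03% and 62.1%. The uncertainty of shared sequence given above applies to Eno1, Pgk1, Pgam1 and Gapdh. Gapdh was at 61.0%, with 5.14 to 9.42 CPM in intact libraries and 10.5, 3.95, 5.44 and 20.4 CPM in deleted replicates 1 to 4.

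The spread of the deleted cultures was therefore wide for these genes. The SD of log2 CPM was larger in the deleted genotype for 34 of 35 members, all but Slc16a3, and its median was 0.19 in intact and 0.66 in deleted libraries. Over all genes the medians were 0.17 and 0.38, and 86.6% had the larger SD in the deleted genotype. The 15 glycolytic enzymes summed to 3471 to 4270 CPM in intact libraries, against 6154, 2021, 4247 and 4512 CPM across the deleted cultures. The log2 fold changes of Gpi1 (-0.14 ± 0.34), Tpi1 (0.05 ± 0.30), Eno1 (-0.09 ± 0.43) and Pkm (-0.18 ± 0.22) were smaller than their standard errors, and without deleted replicate 2 Gpi1 and Eno1 turned to 0.12 and 0.23. Fits of Pfkl (-0.44 ± 0.29), Pfkp (0.55 ± 0.75), Pgk1 (-0.53 ± 0.31), Pgam1 (-0.22 ± 0.17) and Gapdh (0.63 ± 0.49) were not called either.

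Some other cell markers also set deleted replicate 2 apart, in part together with deleted replicate 4. The 7 mesenchymal and mural markers summed to 2.98 to 4.37 CPM in intact libraries, against 5.71, 699, 22.6 and 242 CPM across the deleted cultures. In deleted replicates 2 and 4 Acta2 stood at 191 and 107 CPM and Thbs2 at 172 and 132 CPM. Both were called higher between genotypes. Col3a1 was at 334 CPM in deleted replicate 2 and at most 0.359 CPM in every other library. Tagln, Col1a1, Col1a2 and Pdgfrb reached at most 2.61 CPM in any library. The 6 neuronal markers summed to 14.8 to 20.9 CPM in intact libraries, against 8.56, 111, 5.88 and 7.83 CPM across the deleted cultures. Dcx alone was at 101 CPM in deleted replicate 2 and Rbfox3 at 8.17 CPM. In the same library Tubb3 (1.38 CPM), Elavl3 (0.551 CPM) and Neurod1 (0.0918 CPM) were at their lowest of the 8 libraries. Between genotypes Elavl3 and Neurod1 were called lower. Proliferation markers (4 genes) summed to 1906 to 2302 CPM in intact libraries, against 1101, 1976, 2122 and 1030.2 CPM across the deleted cultures. The sum of deleted replicate 2 lay inside the intact range. In that library Mki67 (622 CPM), Ccnb1 (87.2 CPM) and Cdk1 (215 CPM) lay below every intact library and Top2a (1052 CPM) above every one. The part of these markers in the low glycolytic levels was not tested.

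**Figure D4:**
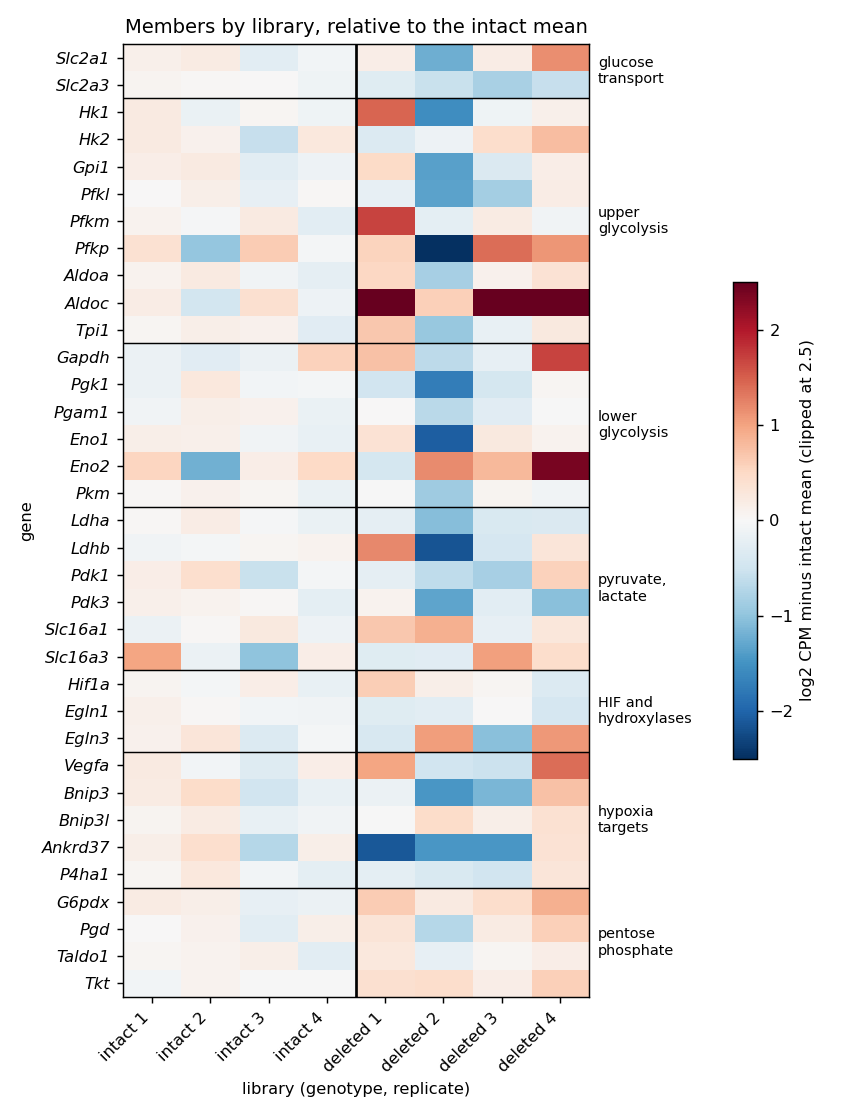
Log2 CPM of each member in each library minus its intact mean, with red for higher and blue for lower, clipped at 2.5. The column of deleted replicate 2 is blue through most of glycolysis, and the column of deleted replicate 4 is red for 13 members where it is the highest library.

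Hexokinase 2 and neuronal enolase, both low in intact cultures, were not called. Hk2, the inducible hexokinase and a HIF target, stood at 40.2, 37.2, 23.1 and 41.5 CPM in the 4 intact cultures, against 27.1, 31.6, 47.1 and 59.3 CPM in the 4 deleted cultures. Its log2 fold change was 0.22 ± 0.28. Eno2 stood at 1.497, 0.359, 1.125 and 1.44 CPM and at 0.697, 2.39, 1.81 and 5.65 CPM, a log2 fold change of 1.23 ± 0.65 (edgeR adjusted p = 0.262). The genotypes overlapped for both.

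Neither of the 2 glucose transporters was called. Slc2a3 (GLUT3), the high-affinity transporter known from neurons, stood at 12.97, 12.6, 12.4 and 11.4 CPM in the 4 intact cultures, against 10.02, 8.35, 6.97 and 8.17 CPM in the 4 deleted cultures. All deleted libraries lay below all intact ones. The log2 fold change of -0.56 ± 0.16 missed the threshold (edgeR adjusted p = 0.0704), and it stayed below 0 in all 22 alternatives, 5 of which called it. Slc2a1 (GLUT1), the basal transporter and a HIF target, stood at 33.4, 34.98, 25.4 and 29.0 CPM in intact libraries, against 34.0, 12.9, 34.6 and 68.2 CPM across the deleted cultures. Its genotypes overlapped, with deleted replicate 2 lowest and deleted replicate 4 highest of the 8 libraries, and its fitted value of 0.29 ± 0.41 became -0.17 when deleted replicate 4 was left out.

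Ldha, which regenerates NAD+ by turning pyruvate into lactate, was the most abundant member of the pyruvate and lactate genes. It stood at 1188, 1334, 1144 and 1040.01 CPM in the 4 intact cultures, against 1009, 562, 904 and 907 CPM in the 4 deleted cultures. Each deleted library lay below each intact one, deleted replicate 1 by a small margin. The log2 fold change was -0.48 ± 0.20 (edgeR adjusted p = 0.177), and -0.32 without deleted replicate 2. No alternative called it, and in each of them the value was below 0.

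The genes that govern pyruvate entry to mitochondria and lactate transport were not called. Pdk1 and Pdk3, kinases that switch off pyruvate dehydrogenase, had log2 fold changes of -0.22 ± 0.33 and -0.52 ± 0.29. Pdk3 stood at 24.4 to 31.5 CPM in intact libraries, against 30.8, 11.5, 24.1 and 14.0 CPM across the deleted cultures, the lowest values being deleted replicates 2 and 4. Slc16a1, the lactate and pyruvate carrier MCT1, stood at 106 to 138 CPM and at 186, 217, 101 and 143 CPM (0.46 ± 0.23, edgeR adjusted p = 0.234). For Slc16a1 deleted replicate 2, low for the enzymes, was the highest library. Slc16a3, the carrier MCT4, had 0.342 to 1.71 CPM in intact libraries, against 0.634 to 1.76 CPM across the deleted cultures. Ldhb, described above, had a fitted value of 0.17 ± 0.55.

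Neither Hif1a nor its hydroxylases were called. Hif1a, the oxygen-regulated subunit, stood at 282, 257, 298 and 236 CPM in the 4 intact cultures, against 411, 297, 277 and 209 CPM in the 4 deleted cultures, with overlapping genotypes (0.16 ± 0.20). The activity of its product is set mainly at the protein level, which was not measured. Egln1, the main oxygen-sensing prolyl hydroxylase, stood at 109, 103, 96.01 and 93.8 CPM in intact libraries, against 80.8, 83.5, 101 and 74.5 CPM across the deleted cultures. Deleted replicates 1, 2 and 4 lay below the intact range and deleted replicate 3 inside it (-0.24 ± 0.12, edgeR adjusted p = 0.258). Egln3, a hydroxylase that is itself a HIF target, stood at 8.95 to 14.05 CPM in intact libraries, against 8.62, 23.6, 5.49 and 24.5 CPM across the deleted cultures, with a fitted value of 0.42 ± 0.46.

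The hypoxia targets differed between deleted cultures and not in a single direction. Vegfa, the angiogenic growth factor, stood at 99.2, 80.4, 67.4 and 94.1 CPM in the 4 intact cultures, against 166, 60.1, 58.1 and 222 CPM in the 4 deleted cultures. Bnip3, a mitophagy receptor, stood at 27.4, 33.1, 17.2 and 21.02 CPM and at 21.5, 8.63, 10.8 and 40.0 CPM. Ankrd37, a small ankyrin protein gene, stood at 4.70, 5.74, 2.54 and 4.75 CPM and at 0.888, 1.47, 1.48 and 5.48 CPM. For these 3 genes deleted replicate 4 was the highest or second highest of the libraries, and deleted replicates 2 and 3 lay below every intact library.

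P4ha1, a collagen prolyl hydroxylase subunit, stood at 179, 207, 164 and 147 CPM in the 4 intact cultures, against 146, 134, 124 and 215 CPM in the 4 deleted cultures. Bnip3l, the related mitophagy receptor, stood at 87.7, 96.6, 74.2 and 78.8 CPM and at 82.9, 116, 92.5 and 109 CPM. P4ha1 was highest in deleted replicate 4, like Bnip3, with the other 3 deleted libraries below every intact one. Bnip3l was highest in deleted replicate 2. Log2 fold changes were 0.57 ± 0.43 for Vegfa, -0.29 ± 0.46 for Bnip3, 0.25 ± 0.14 for Bnip3l, -0.94 ± 0.56 for Ankrd37 and -0.17 ± 0.20 for P4ha1.

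Deleted replicates 3 and 4 came from the same litter and still differed in these genes. Egln3 was 4.47 times as high in deleted replicate 4 as in deleted replicate 3, Vegfa 3.82 times, Bnip3 and Ankrd37 3.70 times, Pdk1 2.65 times, Slc2a1 1.97 times and P4ha1 1.73 times. In total 8 members were over 2-fold higher in deleted replicate 4 (Gapdh, Eno2 and Pfkl were the others) and 0 in deleted replicate 3, with 14.4% of all genes over 2-fold apart in either direction. Intact replicates 1 and 2, also littermates, differed over 2-fold for 3 members, Eno2, Pfkp and Slc16a3. Deleted replicate 4 was the highest library for 13 of 35 members (37.1%), against 16.7% of all genes. It also had the highest mitochondrial share (34.4%) and the lowest summed proliferation markers, and their part was not tested.

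A separate list of 26 further hypoxia targets, 21 of them tested, is given beside the members. Its median position relative to the intact mean was 0.10, 0.14, -0.23 and -0.07 log2 units in intact replicates 1 to 4 and 0.07, -0.21, -0.37 and 0.45 in deleted replicates 1 to 4. For the 5 hypoxia targets among the members the medians were 0.14, 0.26, -0.32 and -0.09, and -0.15, -0.49, -0.54 and 0.38. Deleted replicate 4 came first and deleted replicate 3 last in both lists, and intact replicate 3 was the lowest intact library in both. With scaling by total counts the value of deleted replicate 4 was 0.19 for the further list and 0.12 for the members, where the median of all genes in that library was -0.25. Intact replicate 2 then led for the members with 0.26.

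**Figure D5:**
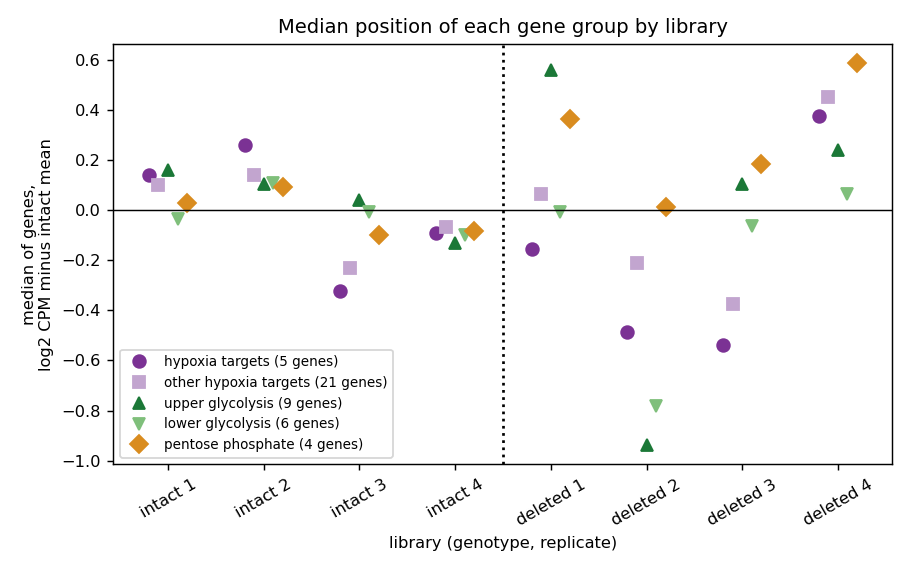
Median over the genes of each group of log2 CPM minus the intact mean, by library, with TMM scaling. Both hypoxia lists are highest in deleted replicate 4 and lowest in deleted replicate 3, upper and lower glycolysis drop in deleted replicate 2, and pentose phosphate genes lie above 0 in all 4 deleted libraries. With scaling by total counts, not drawn, intact replicate 2 leads the members' hypoxia targets and the pentose phosphate median is -0.027 in deleted replicate 2.

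Of the 4 pentose phosphate enzymes, G6pdx and Tkt lay higher in every deleted culture without passing the test. G6pdx, glucose-6-phosphate dehydrogenase and the NADPH-yielding entry step, stood at 77.3, 74.5, 58.7 and 60.6 CPM in the 4 intact cultures, against 104, 79.1, 90.7 and 125 CPM in the 4 deleted cultures. Every deleted library lay above every intact one, deleted replicate 2 closely. The log2 fold change of 0.56 ± 0.17 missed the threshold (edgeR adjusted p = 0.0762). DESeq2 (0.0361) and the fit without deleted replicate 2 (0.0293) were past it.

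Tkt, transketolase of the non-oxidative branch, stood at 383, 424, 399.9 and 396 CPM in the 4 intact cultures, against 527, 540.3, 449.5 and 603 CPM in the 4 deleted cultures. The genotypes did not overlap, and deleted replicate 2, low for glycolysis, was the second highest library. The log2 fold change of Tkt was 0.40 ± 0.13 (edgeR adjusted p = 0.0981). Pgd, the second NADPH-yielding enzyme, and Taldo1, transaldolase, had overlapping genotypes and log2 fold changes of 0.17 ± 0.25 and 0.07 ± 0.14. Pgd was lowest in deleted replicate 2 at 18.7 CPM, against 25.7 to 33.9 CPM in intact libraries.

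The 4 enzymes summed to 586, 628, 585 and 567 CPM in intact replicates 1 to 4 and to 780, 717, 670.5 and 877 CPM in deleted replicates 1 to 4. With scaling by total counts the sums were 579 to 661 and 673 to 770 CPM, so that the genotypes did not overlap under either scaling. Most of the sum was Tkt. G6pdx, Pgd, Taldo1 and Tkt are known in mouse as targets of the antioxidant factor NRF2, and TGACNNNGC was found before the start of G6pdx and in none of the listed windows of the other 3.

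Rpia, ribose-5-phosphate isomerase, which makes the ribose used for nucleotides, fell in the deleted cultures. It was not among the members but stood in a list of 11 further pentose phosphate genes, 9 of them tested. It went from 14.6, 14.8, 15.5 and 18.9 CPM in intact replicates 1 to 4 to 6.72, 6.70, 8.57 and 6.96 CPM in deleted replicates 1 to 4, with every deleted library below every intact one. The means were 16.0 ± 2.01 and 7.24 ± 0.894 CPM (SD, n = 4), the log2 fold change -1.14 ± 0.16 and the edgeR adjusted p 0.00881. The call held in all 23 settings, with adjusted p up to 0.0477. In this list edgeR and limma-voom each called 1 of 9 genes, and DESeq2 called 2, 1 higher and 1 lower. Over all 13498 tested genes edgeR called 1066, limma-voom 1062 and DESeq2 2200.

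Of 98 further genes of these pathways, 82 were tested and 11 (13.4%) were called, 7 higher and 4 lower, beside 7.9% of all genes. These lists were chosen with earlier results of these data known, so their called shares cannot test for enrichment. Among 25 tested glucose and glycolysis genes 5 were higher and 1 lower. Pfkfb3, which makes the allosteric activator of phosphofructokinase, rose from 12.3, 12.4, 12.5 and 16.6 CPM in intact replicates 1 to 4 to 18.3, 36.8, 24.98 and 30.1 CPM in deleted replicates 1 to 4 (log2 fold change 1.03 ± 0.22, edgeR adjusted p = 0.0306). G6pc3, a glucose-6-phosphatase, rose from 15.8 ± 0.700 to 27.0 ± 4.59 CPM (0.77 ± 0.14, edgeR adjusted p = 0.0183).

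Bpgm, bisphosphoglycerate mutase of the glycolytic side branch, fell from 26.5 ± 2.36 to 13.4 ± 3.04 CPM (-0.98 ± 0.18, edgeR adjusted p = 0.0165). Slc2a10, the transporter GLUT10, stood at 0.419 to 0.978 CPM in intact libraries, against 1.08, 21.5, 9.50 and 11.4 CPM across the deleted cultures (4.07 ± 0.80, edgeR adjusted p = 0.0235). For Slc2a10 deleted replicate 1 was barely above the intact range. These 4 genes lost their calls when any intact library was removed (adjusted p up to 0.108), and Pfkfb3 also without deleted replicate 4. The fits without 1 intact library called 189 to 261 genes in all. All 4 calls were lost with littermates summed (up to 0.144), and those of Slc2a10 and Pfkfb3 also with litter as a random block. The 2 further called genes, Slc2a8 and Galm, were higher too.

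Among the 21 further hypoxia targets 2 were called higher and 2 lower, beside 5.1% and 2.8% of all tested genes. Ero1a, the oxidase of disulfide formation in the endoplasmic reticulum, stood at 52.9, 53.9, 47.7 and 41.9 CPM in intact libraries, against 68.2, 94.4, 67.8 and 120 CPM across the deleted cultures (0.83 ± 0.20). Ppp1r3c, which targets protein phosphatase 1 to glycogen, stood at 17.1, 12.6, 12.2 and 17.4 CPM and at 117, 18.4, 42.1 and 55.6 CPM (1.97 ± 0.49). Plod2, a collagen lysyl hydroxylase, fell by 0.60 ± 0.15 and Jmjd6, a JmjC-domain hydroxylase, by 0.45 ± 0.11 (log2). For all 4 the adjusted p ran from 0.0411 to 0.0477 and none of the 4 calls survived the removal of any intact library (up to 0.152). They were lost also without deleted replicate 4 for Ero1a, 3 or 4 for Ppp1r3c, and 1 or 3 for Plod2 and Jmjd6, and Ppp1r3c was at 1.38 without deleted replicate 1. With litter as a random block or with littermates summed, Ero1a, Ppp1r3c, Plod2 and Jmjd6 were not called. As given above, the fits without 1 intact library called 189 to 261 genes in all.

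In the lists of 20 further pyruvate and lactate genes and 10 further HIF pathway genes, edgeR called 0 of 18 and 0 of 9 tested. At an unadjusted p under 0.05 the first list had 3 higher and 2 lower and the second 0 of either. DESeq2 called 5 (3 higher, 2 lower) and 0, and limma-voom 1 (lower) and 0. Of all 13498 tested genes edgeR called 1066, DESeq2 2200 and limma-voom 1062, and 26.2% had an unadjusted p under 0.05 with edgeR.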

How the data were processed

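Polyadenylated RNA was sequenced as 100-base single-end reads, per the labels' protocols. The submitters' processing notes name CASAVA 1.8.2, featureCounts and the mm10 build. The deposited values are raw counts per gene, as the authors made them, and the strand setting and the treatment of reads with several matches are not given in the sources used here.

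Of the 27179 genes in the count table, 13498 passed the filter and were tested, Kat7 deleted against Kat7 intact. The fit used edgeR 4.0.16 in R 4.3.3 (quasi-likelihood test, TMM scaling, filterByExpr with a minimum count of 10, Benjamini-Hochberg adjustment over 13498 genes, threshold 0.05). CPM values use TMM-scaled totals. Values after ± are the approximate SE of a log2 fold change or an SD, as stated or by scale. The SE is the fold change divided by the root of the test statistic. Symbols were matched for 25275 genes. The steps were tested on simulated data. Replicates were separate fetuses, 2 of each genotype from a shared litter.

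Members and lists were chosen with earlier results of these data known. All 35 members are named. Values in every library are given for called members, those that did not overlap, and the smallest p and highest level of each role. Called genes of the other pathway lists are named, up to 4 a list by p, and any beyond that by symbol only. Alternatives covered scaling, filters, DESeq2 1.42.0, limma 3.58.1, blocks and left-out libraries. Shared windows came from GENCODE M21 transcripts.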

Additional observations from a re-analysis of the deposited data

Results flagged for a closer look

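Among the 70 sets of 4 libraries examined (35 members in each genotype), 3 held a library far from the others by Dixon's criterion, where chance flags about 1 in 20. Eno1 in deleted replicate 2 stood at 71.6 CPM, with the other deleted libraries at 316 to 383 CPM. Pkm in deleted replicate 2 stood at 808 CPM, with the others at 1410 to 1580 CPM (rounded). Gapdh in intact replicate 4 stood at 9.42 CPM, with the other intact libraries at 5.14 to 5.70 CPM. Levels of Eno1 and Gapdh carry the uncertainty of shared sequence given above.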

How the results depend on the processing

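The main fit called 1066 genes and 1 member. The counts were 673 genes and 2 members with total count scaling, 2200 and 4 with DESeq2, 2283 and 2 with limma-voom sample weights, 414 and 0 with litter as a random block, 193 and 0 with littermates summed, and 2299 and 4 without deleted replicates 1 and 3. Members called were 0 with limma-voom, 0 with no filter on low counts and 3 without deleted replicates 1 and 4 (Slc2a3, Pfkl and Bnip3, all lower). Leaving out 1 intact library gave 189 to 261 genes and 0 members, and leaving out 1 deleted library 755 to 2182 genes and 0 to 2 members. The replicate block gave 319 genes and 0 members. Deviations of same-numbered libraries correlated at 0.0961, 0.221, 0.110 and 0.331, and deleted replicates 2 and 4 alone of the deleted libraries correlated best with their own number, so the numbers were not taken to pair the samples. The median of all genes moved from 0.05 to -0.09 (log2) with total count scaling.

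Of the 35 members 17 kept the sign of their log2 fold change in all settings and 18 reversed it in at least 1, with 51 reversed values. Without deleted replicate 4 these were Slc2a1 -0.17, Hk2 -0.0070 and Tpi1 -0.019. Without deleted replicate 1 they were Hk1 -0.36, Pfkm -0.044, Aldoa -0.051, Tpi1 -0.23, Ldhb -0.45 and Hif1a -0.039. Without deleted replicate 2 they were Gpi1 0.12 and Eno1 0.23, and without deleted replicate 3 Slc16a3 -0.18. Without intact replicate 4 they were Tpi1 -0.062 and Taldo1 -0.031, and without intact replicate 3 Slc16a3 -0.075. Over the fits that left out 1 library the highest or lowest opposite values were Slc2a1 0.57, Hk1 0.66, Hk2 0.37, Gpi1 -0.41, Pfkm 0.81, Aldoa 0.32, Tpi1 0.27, Eno1 -0.28, Ldhb 0.51, Slc16a3 0.66, Hif1a 0.29 and Taldo1 0.16. Without deleted replicates 1 and 4 the reversed values were Slc2a1 -0.38, Hk1 -0.67, Pfkm -0.036, Aldoa -0.32, Tpi1 -0.55, Gapdh -0.48, Ldhb -1.05, Vegfa -0.55, Pgd -0.21 and Taldo1 -0.097. Without deleted replicates 1 and 3 they were Hk1 -0.50, Pfkm -0.18, Aldoa -0.13, Tpi1 -0.25, Ldhb -0.47, Pdk1 0.045, Slc16a3 -0.027, Hif1a -0.085 and Taldo1 -0.015. With total count scaling they were Aldoa -0.060, Tpi1 -0.13, Ldhb -0.039 and Taldo1 -0.079. With limma-voom they were Hk1 -0.0021, Tpi1 -0.072 and Ldhb -0.20, and with sample weights Hk1 -0.091, Tpi1 -0.14, Ldhb -0.24 and Egln3 -0.46. The replicate block gave Hk1 -0.0041, Tpi1 -0.051 and Ldhb -0.22, and the litter block Pfkp -0.16, Tpi1 -0.071 and Ldhb -0.24. Aside from the left-out libraries, the cause was not tested. Low counts of Slc16a3, Eno2 and Ankrd37 limit their precision.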
